A study of Xenopus laevis with 45 samples.

Results

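The comparison set 3 libraries of Xenopus laevis whole embryos that carried 10 ng of the erythroferrone morpholino ERFE MO1 against 3 libraries with 10 ng of a standard control morpholino (cMO), all collected at stage 35/36, the earliest of the 3 stages sampled. These 6 of the 45 libraries of the series were chosen by their titles and paired by replicate number. A further 3 libraries of uninjected stage 35/36 embryos served as a second control for every gene. Both morpholinos were injected at the 8-cell stage into the vegetal blastomeres, and all embryos, uninjected ones included, were kept in 0.1x MBS. The labels give no strain, clutch or number of embryos per library. The p-values therefore reflect only variation among libraries, part of which may be technical. That variation was estimated jointly over 44 libraries of all stages and treatments, not from the stage 35/36 libraries alone. In whole-embryo RNA, fewer cells of a type and less RNA per cell cannot be told apart.

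Morpholinos are antisense oligomers that block translation or splicing of a target transcript. Erythroferrone is a secreted protein of the C1q and TNF-related family, best known in mammals as a hormone of red cell precursors that binds BMP ligands and thereby lowers hepcidin, the liver peptide that limits iron release. The vegetal blastomeres give rise largely to endoderm, the source of gut, liver and pancreas. Embryonic cells under stress switch on genes that stop the cell cycle, repair damage or lead to cell death, among them cdkn1a and the gadd45 and sestrin genes. Such cells also switch on mdm2, which codes for a ubiquitin ligase.

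The 9 libraries held 27012741 to 37374081 counts and detected 34881 to 35641 gene identifiers. Levels below are CPM values (counts scaled to library size) with TMM factors, listed by replicate number in the order 1, 2 and 3. Changes are log2 fold changes with their standard error (SE) from edgeR's quasi-likelihood test, fitted to 44 libraries with replicate number as a block. A gene is called where its p, adjusted by the Benjamini-Hochberg method over 32110 genes, was under 0.05. Each of the 13 tissues checked had a defining marker above 1 CPM. The library labelled ERFE MO2 stage 35/36 replicate 1 differed from an MO1 library of stage 37/38 by a chi-square of only 1.22 per gene, against 3.78 for the next closest of 990 pairs. It was left out of the fit, so MO2 at stage 35/36 rests on 2 libraries.

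The targeted transcript, listed as fam132b.L (erythroferrone), stood at 2.77, 2.33 and 4.73 CPM in the MO1 libraries, at 1.87, 2.90 and 4.66 CPM with cMO, and at 3.18, 3.04 and 5.03 CPM without injection. The 3 groups overlapped. The difference from cMO was 0.06 ± 0.16 (log2 fold change ± SE, adjusted p = 0.90). At stage 37/38 fam132b.L fell by 0.57 (adjusted p = 0.026), and at stage 41 it fell by 0.59 (adjusted p = 0.0056). A translation-blocking morpholino need not lower its transcript, and the labels do not say which kind MO1 is, so the transcript level is no check of the knockdown.

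At stage 35/36, 1081 genes differed between MO1 and cMO (3.37% of those tested): 588 were higher with MO1 (1.83%) and 493 were lower (1.54%). The changes were mostly small. The median absolute log2 fold change was 0.49, and 196 genes changed by at least 1 on the log2 scale, of which 133 were higher and 63 lower. In 809 of the 1081 genes the MO1 and cMO libraries did not overlap, and 1072 moved the same way in all 3 pairs. The genes were chosen by this same paired comparison, which favours both traits, so these counts are no further evidence. Of the 1081 genes, the difference was largest in pair 1 for 674, in pair 2 for 113 and in pair 3 for 294. Without MO1 replicate 1 the count of calls was 354, and without cMO replicate 1 it was 306. Without MO1 replicate 3 it was 665, and without cMO replicate 2 or 3 it was 626. Without the replicate block it was 160, with 141 higher and 19 lower, and all 160 were among the 1081. In a fit of the stage 35/36 libraries alone the count was 566, with 394 higher and 172 lower.

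Against the uninjected libraries, 1371 genes differed (4.27%), 789 higher and 582 lower. Without MO1 replicate 1 that count was 365, and without uninjected replicate 1 or 2 it was 741 or 783. Of the 1081 genes, 646 were also called there with the same sign, 399 higher and 247 lower. Both comparisons use the same MO1 libraries, so this overlap is no independent check. Between cMO and uninjected embryos, 5 genes differed (0.0156%), and 1769 had an unadjusted p under 0.05. Without cMO replicate 1 the count was 2, and without cMO replicate 2 it was 3.

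Among the 36 gene lists examined, that of growth arrest and damage response genes held the most higher genes. Of 48 identifiers tested in that list, 21 rose and 2 fell, against 1.83% and 1.54% of all genes, and the median log2 fold change of the list was 0.21 against -0.003 for all genes. The list's summed level was 2940, 2086 and 2540 CPM with MO1, 1620, 1555 and 1582 CPM with cMO, and 1564, 1480 and 1733 CPM without injection. The MO1 sums lay above all 6 control libraries. Of 19 symbols with both an .L and an .S copy, 9 were called the same way in both; the copies can share reads. The count of risers stayed between 16 and 21 when any one library was left out and was 14 without the block.

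The ubiquitin ligase gene mdm2 rose. mdm2.L was at 169, 101 and 128 CPM with MO1, at 48.1, 38.1 and 37.7 CPM with cMO, and at 38.5, 39.1 and 43.8 CPM without injection. It rose by 1.67 ± 0.14 (adjusted p = 4.0e-09), or 3.19-fold, and by 1.69 against uninjected embryos. Every MO1 library exceeded every control library, and MO1 replicate 1 was the highest. The .S copy mdm2.S rose by 0.99. ccng1.S, the cyclin G1 gene, was at 239.6, 110.9 and 191 CPM with MO1, 95.1, 61.3 and 81.2 CPM with cMO, and 89.99, 56.7 and 106 CPM without injection, a rise of 1.15 ± 0.15 (adjusted p = 7.7e-06), and its MO1 libraries also lay above all controls. The 2 list members that fell were mdm4.S (-0.42), a relative of mdm2, and xpc.L (-0.23), a sensor of DNA damage; against uninjected embryos they gave -0.20 and -0.16, with adjusted p of 0.18 and 0.17.

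**Figure D1:**
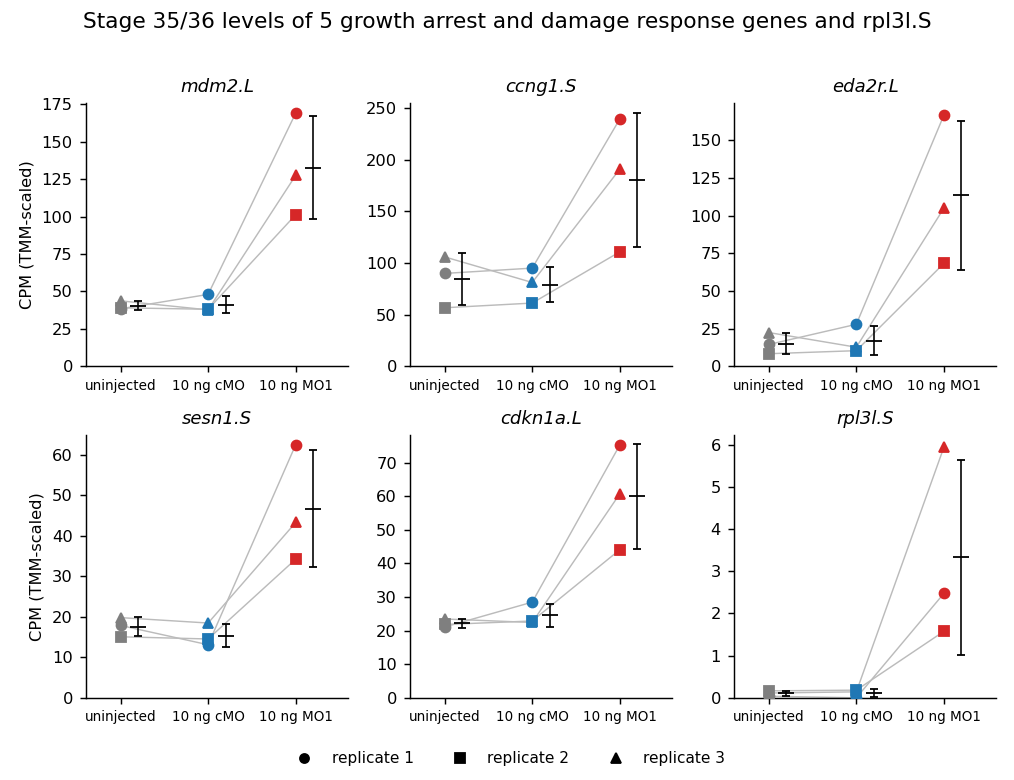
Level of 6 genes (vertical axis, CPM) in each library at stage 35/36 for uninjected, cMO and MO1 embryos; markers are replicate numbers, grey lines join libraries of one number, and black bars are mean ± SD (n = 3). In all 6 panels (mdm2.L, ccng1.S, eda2r.L, sesn1.S, cdkn1a.L and rpl3l.S) the 3 MO1 libraries lie above the 6 control libraries.

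Within the list, eda2r.L, a receptor of the TNF receptor family, showed the largest change. It was at 167, 68.3 and 105 CPM with MO1, 27.9, 10.4 and 12.7 CPM with cMO, and 14.5, 8.35 and 22.4 CPM without injection, a rise of 2.76 ± 0.25 (adjusted p = 2.1e-08), or 6.75-fold. The MO1 libraries again lay clear of all controls. cdkn1a.L, the p21 inhibitor of cyclin-dependent kinases, was at 75.2, 44.1 and 60.7 CPM with MO1, 28.5, 22.9 and 22.4 CPM with cMO, and 21.1, 21.8 and 23.4 CPM without injection, a rise of 1.27 ± 0.15 (adjusted p = 2.4e-06). sesn1.S, a stress-induced inhibitor of growth signalling through TORC1, was at 62.5, 34.3 and 43.3 CPM with MO1, 13.1, 14.5 and 18.5 CPM with cMO, and 17.9, 15.1 and 19.8 CPM without injection, a rise of 1.57 ± 0.17 (adjusted p = 3.3e-07). Neither gene's MO1 range met its control ranges.

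Other members that rose included ccng1.L (1.29), the death receptor fas.L (0.89), the nuclease aen.L (0.78), both copies of gadd45a, a growth arrest gene, and of ppm1d, a phosphatase. Members for which no call was made included bax.S (-0.05 ± 0.12), zmat3.L (-0.18 ± 0.25) and perp.S (0.06 ± 0.06). Medians of the 21 risers were 1.04, 0.62 and 0.80 in pairs 1, 2 and 3.

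Genes of cell death, repair and division moved in smaller numbers. In the apoptosis list 4 of 30 identifiers rose, against 1.83% of all genes, and none fell: the BH3-only genes bcl2l11.L (0.62 ± 0.11, adjusted p = 8.1e-04), bid.L (0.50) and bad.L (0.39), and the initiator caspase casp8.L (0.86). The 4 were 1 without MO1 replicate 1, without cMO replicate 1 or 2 and without the block; of 13 alternatives bad.L lost its call in 10, bid.L in 8 and casp8.L in 6, and bcl2l11.L in none. In the DNA repair list none of 32 rose and 2 fell, fanca.L (-0.33) and the ligase lig1.L (-0.28), against 1.83% and 1.54% of all genes. These 2 were 0 without MO1 replicate 1, cMO replicate 1 or the block and 1 without MO1 replicate 3 or cMO replicate 2 or 3. That list does not hold the repair gene parp3.L, which rose and is described below. The cell cycle list was split, with 3 of 73 higher and 3 lower, against 1.83% and 1.54% of all genes. cdc25c.L, a phosphatase that starts mitosis, rose by 1.01 ± 0.13 (adjusted p = 1.0e-05), and ccnb1.L (1.77) and pcna.L (0.29) rose too, while cdk2.S (-0.27), e2f1.S (-0.55) and mcm2.L (-0.33) fell. The 3 lower were 0 without MO1 replicate 1, 1 without the block and 7 with DESeq2, and the 3 higher were 1 without the block. Of the heat shock list, 4 of 26 rose, against 1.83% of all genes, among them the small heat shock gene hspb1.S (0.94) and dnajb1.L (0.40). These 4 were 0 without MO1 replicate 1 or cMO replicate 1, 2 without cMO replicate 3 and 1 without the block.

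The other genes with large rises came from no single list. rpl3l.S, in mammals a ribosomal protein of striated muscle, was at 2.48, 1.58 and 5.94 CPM with MO1, 0, 0.181 and 0.141 CPM with cMO, and 0.0379, 0.165 and 0.114 CPM without injection. It rose by 4.78 ± 0.45 (adjusted p = 3.8e-08), or 27.4-fold, from control levels near that of a few reads. With DESeq2 it was not called. Its general counterpart rpl3 fell: rpl3.L by 0.37 (adjusted p = 0.0037) and rpl3.S by 0.34. In all, 4 of 100 cytoplasmic ribosomal protein identifiers fell and none rose, against 1.54% and 1.83% of all genes. A negative sign was found for 90 of the 100, at a median of -0.09. The 4 were 0 without MO1 replicate 1 or the block, 1 without cMO replicate 1 and 2 without cMO replicate 3.

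The cytokine gene lif.S was at 3.61, 2.33 and 2.76 CPM with MO1 against 0.22, 0.333 and 0.254 CPM with cMO and 0.0758, 0.198 and 0.114 CPM without injection, with no overlap, and rose by 3.38 ± 0.54 (adjusted p = 2.1e-04). It was the only call among 40 identifiers of the LIF, SOCS and STAT3 list at this stage (2.5%, against 3.37% of all genes). nppb.S, a natriuretic peptide gene of the heart, was at 5.79, 1.75 and 4.76 CPM against 0.476, 0.242 and 0.424 CPM, and rose by 3.36 ± 0.43 (adjusted p = 8.1e-06). Of the rest of the heart list of 46 identifiers, only the myosin light chain gene myl3.S changed (-1.10), a call lost without MO1 replicate 1 or 3, cMO replicate 2 or 3 or the block. The share called was 4.35% of the heart list, against 3.37% of all genes.

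Among the large rises was a gene known in mammals from immune cells. siglec1.L, a macrophage receptor, was at 13.6, 2.26 and 6.93 CPM with MO1 and 0.879, 0.454 and 1.22 CPM with cMO and rose by 2.99 ± 0.32 (adjusted p = 4.2e-07). In the leukocyte list 1 of 51 identifiers changed (1.96%, against 3.37% of all genes) and none rose. That gene, spi1.L, fell by 0.60 and kept its call without MO1 replicate 1 but not without any other single MO1 or cMO library. parp3.L, a DNA repair ADP-ribosyltransferase, was at 69.8, 46.8 and 63.8 CPM with MO1 and 7.88, 12.6 and 10.4 CPM with cMO and rose by 2.57 ± 0.25 (adjusted p = 9.0e-08). dscaml1.L, a neuronal adhesion gene, had the smallest p of all named genes (1.97 ± 0.15, adjusted p = 1.2e-09). The luteinizing hormone receptor gene lhcgr.L (3.11, not called without MO1 replicate 1 or cMO replicate 1), the decoy receptor gene tnfrsf6b.L (2.24), the prostaglandin synthase gene ptgds.L (2.23), the vitamin B12 carrier gene tcn2.S (2.06), arhgef33.S (2.43) and ckap2.S (1.94) completed the strongest rises.

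The list with the most lower genes was that of the liver. Of 64 liver identifiers tested, 20 fell and 1 rose, against 1.54% and 1.83% of all genes. A negative sign was found for 51 of the 64, at a median of -0.39, and for 16221 of all 32110 genes. The summed level of the list was 6556, 7896 and 7849 CPM with MO1, 9184, 9188 and 10432 CPM with cMO, and 7589, 9452 and 10891 CPM without injection. The highest MO1 sum lay above the lowest uninjected sum. Against uninjected embryos 19 fell and 1 rose, where 1.81% of all genes were lower and 2.46% higher. Those 19 were 8 without MO1 replicate 1, 11 with all 45 libraries and 1 without the block.

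All 3 fibrinogen chain genes, which code for the clotting protein of plasma, fell. fgb.S was at 18.6, 66.8 and 57.0 CPM with MO1, 114, 122 and 174 CPM with cMO, and 99.7, 148 and 197 CPM in uninjected embryos, a difference of -1.63 ± 0.22 (adjusted p = 1.2e-05). Its MO1 and control libraries did not overlap. fgb.L gave -1.19, fga.S -0.90, fgg.L -0.74 and fgg.S -0.70, and fga.L at -0.98 was not called (adjusted p = 0.066).

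Several genes of carrier proteins and protease inhibitors of plasma fell as well. ttr.L, transthyretin, a thyroid hormone carrier, was at 39.6, 80.8 and 84.9 CPM with MO1, 146, 129 and 214 CPM with cMO, and 126, 165 and 186 CPM without injection, without overlap, a difference of -1.26 ± 0.22 (adjusted p = 7.1e-04). The more abundant copy ttr.S gave -0.59 and was not called (adjusted p = 0.067). The albumin gene alb.L, at most 0.51 CPM in any of these libraries, gave -0.18 and was not called (adjusted p = 0.86). itih2.S, an inter-alpha-trypsin inhibitor chain, was at 25.8, 41.2 and 39.8 CPM against 58.8, 57.6 and 73.8 CPM with cMO, a difference of -0.85 ± 0.15 (adjusted p = 8.1e-04). rbp4.S, the retinol carrier, was at 94.1, 145 and 173 CPM against 211, 166 and 291 CPM, a difference of -0.70 ± 0.15 (adjusted p = 0.0048) with overlapping groups. Vitronectin (vtn.L, -0.67 ± 0.13), serpina1 (both copies), apoa1 (both copies), a2m.S, ambp.L, fetub.L, kng1.L and plasminogen (plg.S, -0.56 ± 0.15) were lower too, and the clotting factor gene f7.S rose by 0.67. Outside the list, pzp.L, a protease inhibitor of the alpha-2-macroglobulin family, was at 170, 155 and 151 CPM against 350, 366 and 396 CPM with cMO and 268, 370 and 476 CPM without injection (-1.21 ± 0.15, adjusted p = 3.7e-06).

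**Figure D2:**
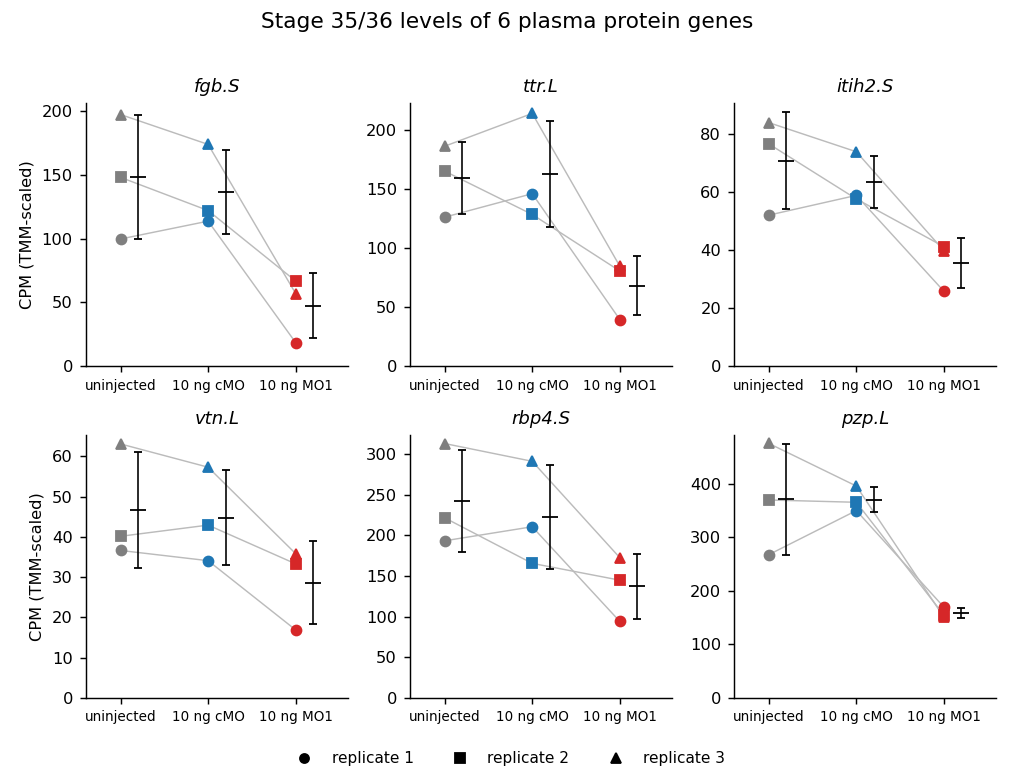
Level of 6 plasma protein genes (vertical axis, CPM) in each library at stage 35/36; markers are replicate numbers, grey lines join libraries of one number, and black bars are mean ± SD (n = 3). For fgb.S, ttr.L, itih2.S and pzp.L all MO1 libraries lie below all cMO libraries, while for vtn.L and rbp4.S the groups overlap.

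The liver fall depended on which libraries were used. Medians over the 20 lower genes were -1.21 in pair 1, -0.43 in pair 2 and -0.66 in pair 3, and pair 1 gave the largest difference for 18 of them. Without MO1 replicate 1, 3 liver genes fell, and without cMO replicate 1, 5 fell; with all 45 libraries 5 fell, and without the block 1 fell. Liver genes also differ with developmental age. In uninjected embryos 17 of the 64 rose from stage 35/36 to 37/38 and 1 fell, against 4.83% and 2.96% of all genes. All 20 lower genes had a positive sign there, and 9 of them were called as rising. A positive sign was found for 66.3% of the 493 lower genes as a whole and for 49.9% of all genes. On an index of age over 347 genes, MO1 differed from cMO by -0.07, 0.07 and -0.28 in pairs 1, 2 and 3. From uninjected embryos MO1 differed by 0.14, -0.03 and -0.19. The uninjected libraries themselves lay at -0.14, 0.15 and -0.01 at stage 35/36, and at 0.65, 0.93 and 0.87 at stage 37/38. Liver genes were not taken out of the 347. The part of developmental age in the liver result was not tested.

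A few genes of the gut and of the adrenal gland, and the thyroid gene foxe1.S, were also among the lower ones. Their lists as a whole did not move one way. The stomach, intestine and lung list had 22 negative and 22 positive signs at a median of 0.005. The adrenal and steroid list had 9 negative and 6 positive signs against cMO, and 7 and 8 against uninjected embryos. In the list for stomach, intestine and lung, 4 of 44 identifiers fell, against 1.54% of all genes, both copies of the fatty acid binding gene fabp1 (fabp1.L -1.34, fabp1.S -1.83) and both of apoa1, which the liver list holds too. The 4 were 0 without MO1 replicate 3 or the block, 1 without MO1 replicate 1 or cMO replicate 1 or 3, and 2 with all 45 libraries. tm4sf4.L, a membrane protein gene of mammalian liver and gut, fell (-2.75 ± 0.48, adjusted p = 6.4e-04; not called without MO1 replicate 3 or the block), and slc51b-like.L, named for a bile acid transporter subunit, gave -2.66 ± 0.69 (adjusted p = 0.027), a call lost without MO1 replicate 1 or 3, cMO replicate 1 or 3 or the block; both were at most 0.377 CPM in every MO1 library. foxe1.S, a thyroid transcription factor, was at 0.524, 2.36 and 0.604 CPM against 2.23, 3.96 and 3.22 CPM with cMO (-1.52 ± 0.28, adjusted p = 0.0012), with overlapping groups. Of 15 adrenal and steroid identifiers 3 fell and 1 rose, against 1.54% and 1.83% of all genes. Lower were the adrenal regulator nr0b1.L (-1.18), the 21-hydroxylase gene cyp21a2.1.L (-2.02) and star.S (-2.40), which carries cholesterol into mitochondria. The gene that rose was fdx1.L (0.35). The 3 were 1 without MO1 replicate 3 or cMO replicate 1 and 0 without the block, and fdx1.L was not called without MO1 replicate 1, cMO replicate 1 or the block. Against uninjected embryos cyp21a2.1.L and star.S were not called (adjusted p = 0.071 and 0.057).

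In the endothelium list 8 of 61 identifiers fell and 2 rose, against 1.54% and 1.83% of all genes. The list had 49 negative signs and a median of -0.22. stab2.L, a scavenger receptor of sinus endothelium in mammals, was at 41.4, 33.0 and 53.8 CPM against 72.9, 48.7 and 85.5 CPM with cMO and 59.1, 53.4 and 81.0 CPM without injection; it fell in every pair, by 0.69 ± 0.09 (adjusted p = 8.1e-06), although the MO1 and cMO ranges overlap. The VEGF receptor gene kdr (kdr.S -0.64, kdr.L -0.46), the transcription factor gene fli1 (fli1.S -0.38, fli1.L -0.36), the diaphragm protein gene plvap.L (-0.59), lyve1.L (-1.21) and the angiopoietin receptor gene tek.L (-0.39) were lower, and aplnr.L (0.39) and esm1.S (0.88) were higher. Summed levels were 665, 644 and 628 CPM with MO1, 719, 702 and 742 CPM with cMO, and 678, 688 and 731 CPM without injection, and 5 rather than 8 fell against uninjected embryos, which were 1 without MO1 replicate 1, 3 without MO1 replicate 3 or uninjected replicate 2, and 0 without the block. The 8 became 0 without the block, 4 and 2 without MO1 replicate 1 and 3, and 1, 4 and 5 without cMO replicates 1, 2 and 3; the 2 higher became 0 without the block, MO1 replicate 1 or any one cMO library, and 1 without MO1 replicate 3.

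Red cell, iron and BMP genes, which the known action of erythroferrone concerns, gave few calls against cMO. The share called was 10% of the iron list and 7.27% of the BMP list, against 3.37% of all genes. None of 43 globin and haem synthesis identifiers was called, at a median of -0.11. Against uninjected embryos 9 of them were lower, where 1.81% of all genes were, at a list median of -0.31. The erythroid factor gata1.L, among the 9, was at 2.30, 3.08 and 4.92 CPM with MO1 and 2.82, 5.62 and 6.19 CPM with cMO. Without injection it was at 6.86, 7.03 and 6.50 CPM. It gave -1.03 against uninjected embryos (adjusted p = 0.0040) and -0.50 against cMO (adjusted p = 0.22). Those 9 calls became 0 without MO1 replicate 1, uninjected replicate 1 or the block, and 4 and 3 without MO1 or uninjected replicate 2. In a fit of the uninjected, 10 ng cMO and MO1 libraries alone they were 3.

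In the iron list 3 of 30 identifiers changed. The iron exporter gene slc40a1.L rose, at 72.9, 51.1 and 72.8 CPM against 46.0, 38.0 and 48.5 CPM with cMO (0.56 ± 0.12, adjusted p = 0.0062), with no overlap between these groups; it was not called without MO1 replicate 1 or the block. aco1.L, an iron regulatory protein gene, fell by 0.25, and tfr2.L, a sensor of transferrin, fell by 0.69. These 2 were 0 without MO1 replicate 1 or 3, cMO replicate 1 or 3 or the block, and 1 without MO1 replicate 2 or cMO replicate 2. In the BMP list 3 of 55 rose and 1 fell, against 1.83% and 1.54% of all genes, and 39 had a positive sign at a median of 0.096. The antagonist gene fst.L, follistatin, was at 45.8, 29.2 and 33.0 CPM against 23.4, 19.3 and 19.5 CPM (0.78 ± 0.12, adjusted p = 7.6e-05), again with no overlap. The ligand gene bmp2.S (0.54) and the inhibitor gene smad6.L (0.30) rose, and the receptor gene bmpr1a.L fell by 0.50, but against uninjected embryos these gave 0.41, 0.19 and -0.30 and were not called. The 3 rises were 1 without MO1 replicate 3, cMO replicate 1 or 3 or the block.

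Skeletal muscle had 4 of 67 identifiers lower, against 1.54% of all genes, the regulators msc.L (-1.25), msc.S (-1.13) and mef2c.L (-0.33) and the sarcomere gene myom1.S (-0.31), and rpl3l.S higher. The 4 were 0 without MO1 replicate 3, cMO replicate 1 or the block and in the fit of stage 35/36 alone, 1 when either MO1 replicate 1 or cMO replicate 2 was left out, and 2 when cMO replicate 3 was. In the motile cilia list 2 of 39 rose, against 1.83% of all genes, the regulators rfx3.L (0.84 ± 0.14, adjusted p = 2.5e-04) and foxj1.L (0.55). The list median was 0.26. Against uninjected embryos 11 rose, where 2.46% of all genes were higher. Those 11 became 0 without the block, 1 without MO1 replicate 1, 2 without uninjected replicate 1 and 3 without uninjected replicate 3. Among 49 immediate early and wound genes 3 rose and 1 fell, and among 55 amino acid and endoplasmic reticulum stress genes 3 rose, including sesn2.S (0.57), and 2 fell, including the serine synthesis gene psph.S (-0.50). The neural progenitor and Notch list had 2 of 53 higher, jag1.L and hes1.S, and 2 lower, hes3.1.S and notch3.S. The oxidative phosphorylation list had both copies of ndufa8 higher (0.48 for .L and 0.40 for .S) and atp5b.L lower. The share called was 8.16% of the immediate early list and 9.09% of the amino acid and endoplasmic reticulum stress list. It was 7.55% of the Notch list and 2.75% of the oxidative phosphorylation list, against 3.37% of all genes. Every count of 2 or 3 against cMO in these lists after skeletal muscle was 0 or 1 without MO1 replicate 1 and without the block, as was every one but that of ndufa8 without cMO replicate 1; without MO1 replicate 3 or cMO replicate 2 or 3 some were 0 or 1 as well.

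A single call each was made in the lists for exocrine pancreas (ctrb2.L), pronephros (slc12a3.L, -0.77), sterol synthesis (fdps.S, 0.35), innate immunity (cfb.S, 1.24), neurons (syn2.S, 0.62), epidermis (krt8.S, 0.57), tailbud (fgf8.S, 1.07) and ribosome biogenesis (ubtf.S, -0.19). The share called was 5.88% of the exocrine pancreas list and 1.82% to 2.63% of the others, against 3.37% of all genes. Of the alternatives, fdps.S lost its call in 10 of 13, ubtf.S in 9 of 13 and ctrb2.L in 6 of 12. Those 6 do not include DESeq2 or the fit of stage 35/36 alone, where ctrb2.L was not called either. The calls of slc12a3.L, cfb.S, syn2.S and krt8.S were lost in 3 to 5 of 13, and that of fgf8.S in none. For ctrb2.L, a chymotrypsinogen gene, the MO1 libraries held 28 counts in all and the cMO libraries 1, a ratio of 28.5 with a 95% counting interval of 4.71 to 1166. Notochord and cartilage genes had 2 rises (shh.L and hapln3.S; 0 without MO1 replicate 1, cMO replicate 1 or 3 or the block, and 1 without MO1 replicate 3), and the hypoxia and glycolysis list had 1 rise (epas1.S) and 1 fall (ndrg1.L). The share called was 3.70% of the notochord and cartilage list and 4.55% of the hypoxia and glycolysis list. No identifier was called in the lists for endocrine pancreas and gut hormones, lens and photoreceptors, or pigment cells; tyrp1.L, a pigment gene, was at 212, 217 and 161 CPM with MO1 and 205, 198 and 164 CPM with cMO.

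For a few genes the cMO libraries, not the MO1 libraries, stood apart. ghrh.L, growth hormone releasing hormone, was at 0.0582, 0.308 and 0.0953 CPM with MO1, 2.53, 1.51 and 2.15 CPM with cMO, and 0.0758, 0.198 and 0.142 CPM without injection. MO1 and uninjected embryos overlapped and the cMO libraries stood above both, so the -3.75 ± 0.46 against cMO was matched by 0.05 against uninjected embryos. For ghrh.S the cMO libraries held 134 counts, the MO1 libraries 10 and the uninjected libraries 0, so its level with cMO was 13.2-fold that with MO1 (95% counting interval 6.94 to 28.1) and at least 43.5-fold that without injection, taking a floor of 3 counts over the group.

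rpn2.S, ribophorin II of the oligosaccharyltransferase complex that glycosylates secretory proteins, was at 202, 211 and 189 CPM with MO1, 110, 146 and 150 CPM with cMO, and 198, 236 and 208 CPM without injection. Here too the cMO libraries stood apart, below the others, giving 0.58 ± 0.11 against cMO and -0.08 against uninjected embryos. rpn2.L was also lower with cMO than without injection (-0.65 ± 0.10, adjusted p = 0.0077). With MO1 it gave only 0.36 against cMO and was not called. In the RefSeq table ghrh.L and rpn2.L are neighbouring genes. The hypothalamus and pituitary list had these ghrh copies as its only calls among 28 identifiers (7.14%, against 3.37% of all genes). The remaining gene called between cMO and uninjected embryos has no symbol.

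**Figure D3:**
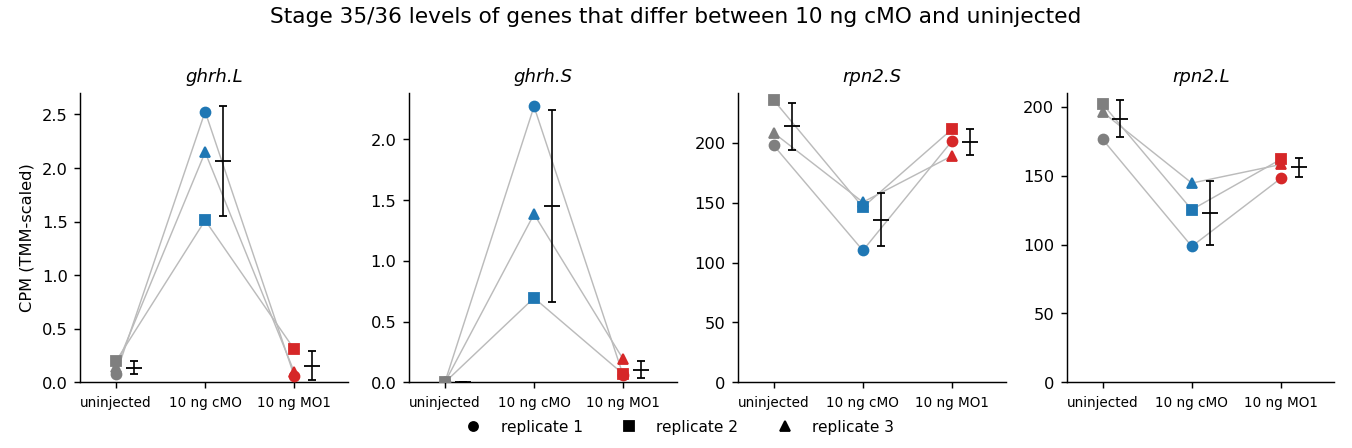
Level of ghrh.L, ghrh.S, rpn2.S and rpn2.L (vertical axis, CPM) in each library at stage 35/36; markers are replicate numbers, grey lines join libraries of one number, and black bars are mean ± SD (n = 3). The cMO libraries stand above both other groups for the ghrh copies and below them for the rpn2 copies. For rpn2.L the difference between MO1 and cMO was not called.

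Later stages, which use separate libraries, show how far the stage 35/36 response went on. MO1 and cMO differed in 1519 genes at stage 37/38 (4.73%), 804 higher (2.5%) and 715 lower (2.23%), and in 5121 genes at stage 41 (15.9%), 1859 higher (5.79%) and 3262 lower (10.2%). Of the 1081 early genes, 537 (49.7%) were called with the same sign at stage 37/38, which is 35.4% of that stage's calls, and 0 with the opposite sign. At stage 41, 563 (52.1%) were, which is 11.0% of that stage's calls, and 5 had the opposite sign. All 3 stages shared 381 calls of the same sign, 248 higher and 133 lower, and 361 early genes were called at neither later stage. The difference between the stage 41 and stage 35/36 responses was called for 296 genes (0.922%), 128 positive and 168 negative. Of these, 34 were among the 1081, and the response was smaller at stage 41 in 32 of the 34. The 1081 were chosen by their stage 35/36 response, which favours a smaller later one, so no fading can be read from this. Without MO1 replicate 3 or cMO replicate 1 the count of 296 was 126, without cMO replicate 2 it was 142 and without cMO replicate 3 it was 175.

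Among the lists, growth arrest and damage response genes were near their later counts from the start. At stage 37/38, 22 rose and 3 fell, the same counts as at stage 41. Without the block 14, 17 and 11 rose at the 3 stages in order, and none fell. The stage difference was called for none of the 48, against 0.922% of all genes, a share that leaves little room for a call in a list of this size. mdm2.L gave 1.67, 1.81 and 1.08 at the 3 stages in order. Liver genes numbered 20 lower at stage 35/36, 18 at 37/38 and 19 at 41, with 1, 2 and 6 higher. The stage difference was called for 3 of them, all less negative or turned positive at stage 41: ttr.L went from -1.26 to -0.01, and the glucose 6-phosphatase genes g6pc.L and g6pc.S from -0.88 to 1.88 and from -0.30 to 1.56. The 3 were 1 without MO1 replicate 1 or 3 or cMO replicate 1 or 3, and 0 without the block.

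Other lists held most of their calls at stage 41, when calls were also more frequent over all genes. Sterol synthesis had 1 of 44 identifiers higher at stage 35/36, 11 at 37/38 and 38 at 41, and the stage difference was called and positive for 26, which were 19 to 27 when any one library was left out and 1 without the block. hmgcs1.L, an early enzyme of the pathway chosen after its values were seen, went from -0.25 ± 0.10 to 1.32 ± 0.10, a stage difference of 1.57 ± 0.13 (adjusted p = 2.1e-08). Genes of the stomach, intestine and lung numbered 4, 3 and 22 lower over the stages, with the difference called and negative for 5, among them the proton pump gene atp4a.L, which went from 1.04 ± 0.67 to -3.32 ± 0.39. The 5 were 2 without MO1 replicate 3 or cMO replicate 1, 3 without MO1 replicate 2 or cMO replicate 2 or 3, and 0 without the block.

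Skeletal muscle had 4, 11 and 24 of 67 identifiers lower, heart muscle 1, 2 and 13 of 46, and the exocrine pancreas 0, 2 and 9 of 17. Over all genes the lower share grew too, from 1.54% to 2.23% and 10.2%, so growth of a count alone is not particular to a list. The difference between stages 41 and 35/36 was called and negative for 4, 4 and 1 genes of these lists. For skeletal muscle the 4 dropped to 1 when cMO replicate 1 or 2 was left out and to 2 when MO1 replicate 2 or 3 was; for heart they dropped to 1 when MO1 replicate 3 was left out and to 2 when cMO replicate 2 was; the pancreas call was lost without MO1 replicate 2 or 3 or cMO replicate 2. All 3 counts were 0 without the block. Sarcomere genes such as mybpc1.S went from 0.01 to -2.19, and the carboxypeptidase gene cpa1.L went from 0.22 to -3.41. At stage 35/36 cpa1.L averaged only 0.36 CPM with MO1 and 0.30 CPM with cMO, where 3 counts are 0.0803 to 0.111 CPM. The 17 pancreas identifiers together summed to 12.3, 15.3 and 15.6 CPM with cMO, so an early fall could be missed there. Endothelium had 8, 15 and 22 of 61 lower, with the difference called for 5, 3 positive and 2 negative. The 5 were 0 without cMO replicate 2 or the block, 1 without cMO replicate 1, 2 without cMO replicate 3 or MO1 replicate 1 or 2, and 3 without uninjected replicate 3. Immediate early genes numbered 3, 7 and 33 of 49 higher and cell cycle genes 3, 5 and 29 of 73 lower, with the difference called for 2 each. Over all genes 1.83%, 2.5% and 5.79% were higher at the 3 stages. The immediate early 2 were 0 without MO1 replicate 2 or 3 or cMO replicate 1 or 2, and 1 when MO1 replicate 1 or cMO replicate 3 was left out; the cell cycle 2 were 0 without MO1 replicate 3 and 1 without any one cMO library; both were 0 without the block. Without the block the stage 41 counts were also smaller, with 22 sterol synthesis and 11 immediate early genes higher, and 6 stomach, intestine and lung, 4 skeletal muscle, 3 heart, 3 pancreas, 7 endothelium, 5 liver and 3 cell cycle genes lower.

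**Figure D4:**
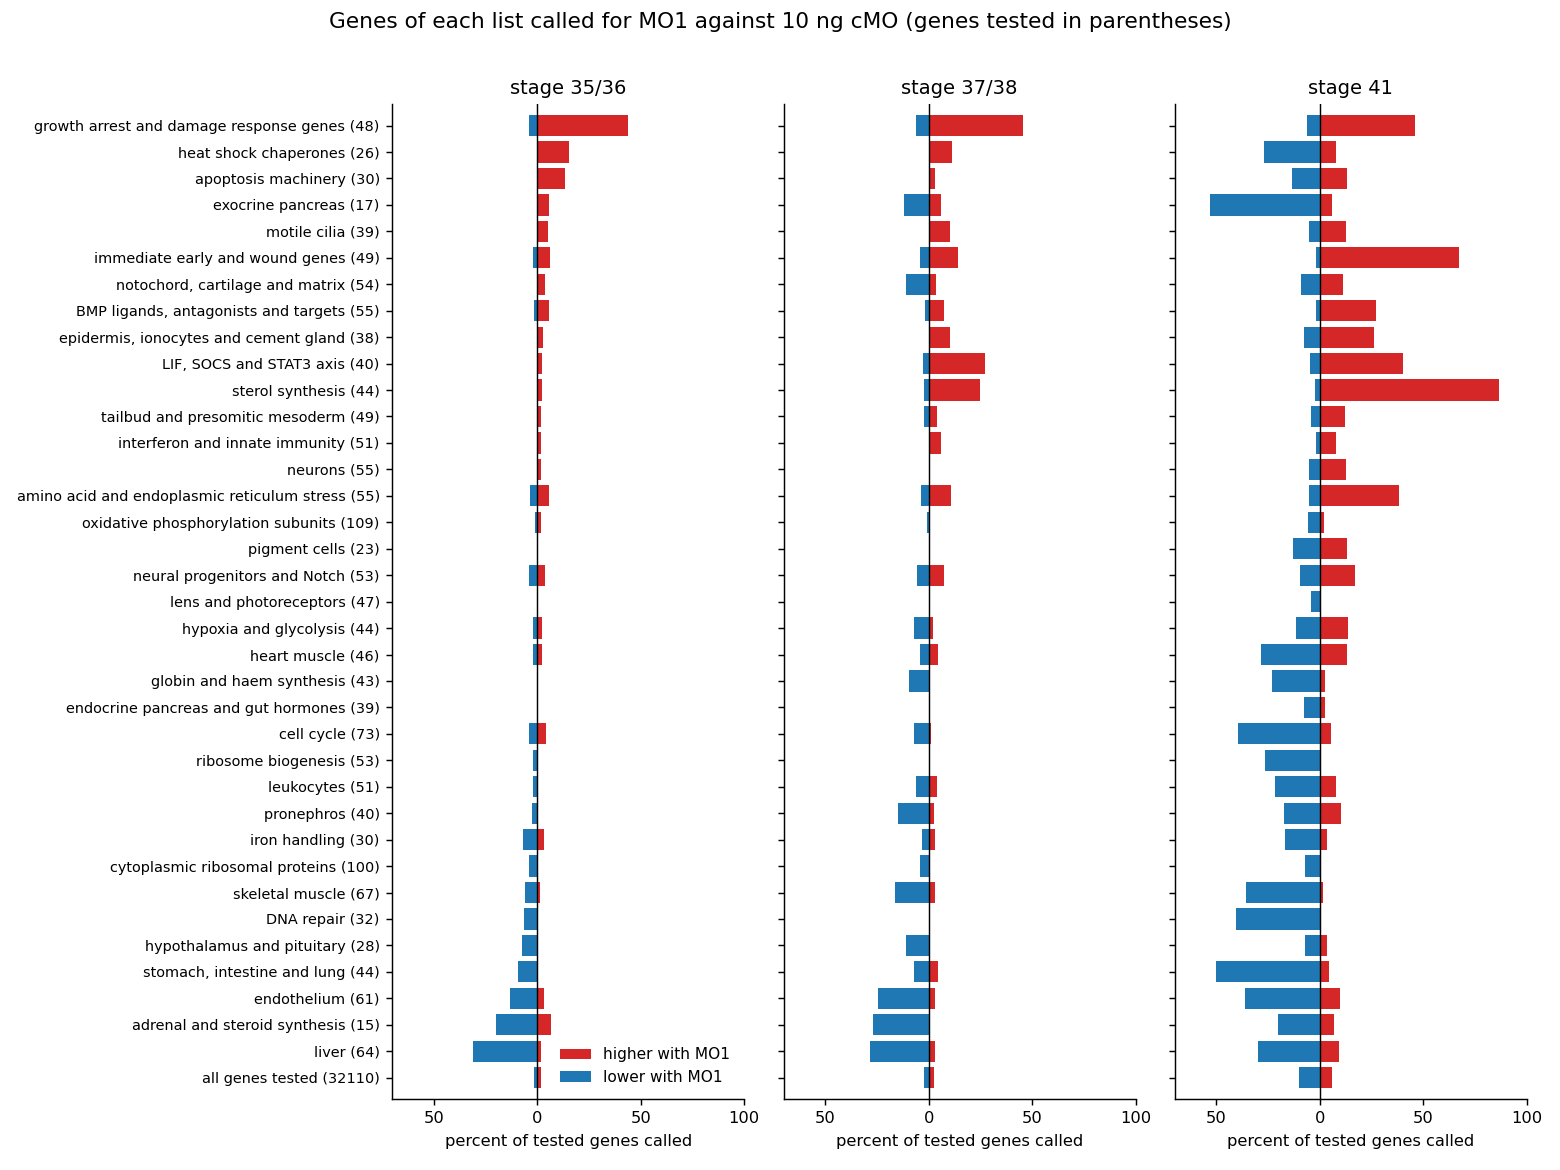
Percent of identifiers called higher or lower with MO1 than with cMO (horizontal axis) in each of 36 gene lists and in all genes tested, at stages 35/36, 37/38 and 41. The growth arrest and damage response list is near its stage 41 share already at stage 35/36, with 21 and 22 of 48 higher, while sterol synthesis goes from 1 to 38 of 44 higher.

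The second morpholino, ERFE MO2, was given at 20 ng and is compared with 20 ng cMO, so dose and oligomer differ together. Of the 1081 genes, 806 (74.6%) had the same sign with MO2, against 56.7% of all genes. The MO1 response differed from the MO2 response in 116 genes (0.361%), 67 of them among the 1081. MO1 was the larger response in 64 of the 67. The 1081 were chosen by their MO1 response, which favours this direction, so no conclusion about the morpholinos is drawn from it. With all 45 libraries, the doubted one included, the count was 3 in place of 116. That fit counts as MO2 a library close to an MO1 library, so it cannot show whether the 116 calls hold. Without cMO replicate 1, cMO replicate 3 or MO1 replicate 1 it was 31, 51 or 69.

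For 4 growth arrest and damage response genes, both copies of mdm2 and of the kinase gene plk2, the MO1 response exceeded that to MO2 by the test. All 23 members called at stage 35/36 had the same sign with MO2, and the list's median was 0.12 there. Only 3 of the 48 identifiers were called for MO2 against 20 ng cMO, 1 of them lower. mdm2.L gave 1.67 with MO1 and 0.24 with MO2, a difference of 1.44 ± 0.21 (adjusted p = 0.0016). Those 4 calls were 2 without cMO replicate 1 or 3 and 0 without the block. For liver genes the median was -0.76 with MO2, with 52 of 64 negative and 25 called for MO2, all lower. The share of all genes called for MO2 was not counted. The difference between the 2 responses was called for 4 liver genes, each lower with MO2 than with MO1. vtn.L gave -0.67 with MO1 and -1.84 with MO2, a difference of 1.17 ± 0.21 (adjusted p = 0.0074), and the others were gc.S (1.67 ± 0.30), plg.S (1.53 ± 0.25) and ttr.S (1.27 ± 0.28). The 4 liver calls were 7 without MO1 replicate 1 and 0 without the block. With all 45 libraries these calls on either list became 0, in a fit that counts the doubted library as MO2 and so is no check of them.

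**Figure D5:**
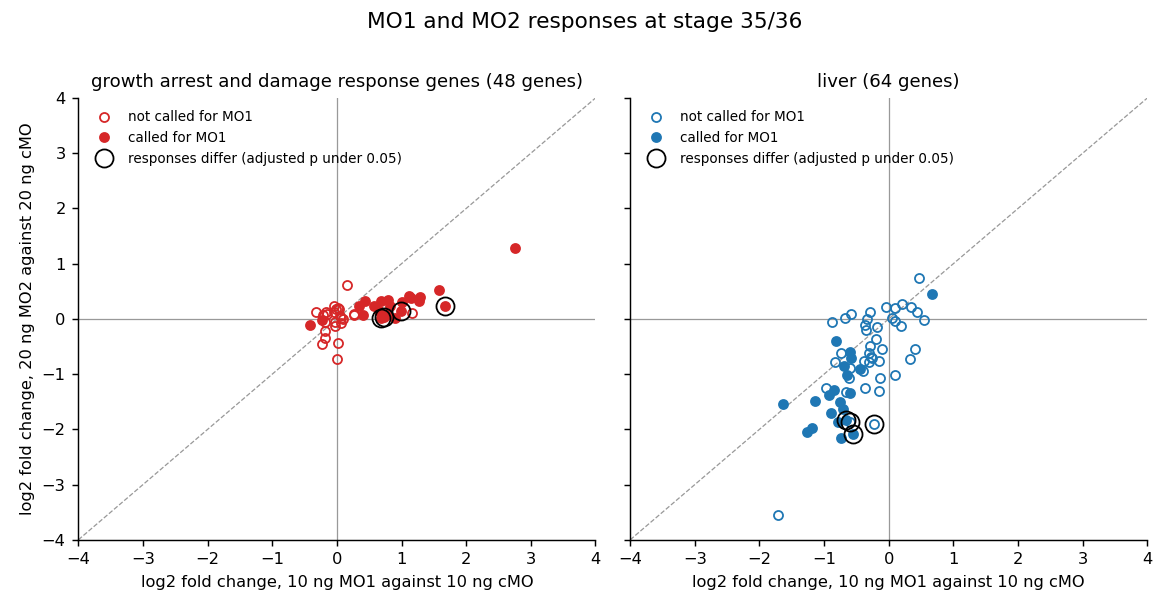
Log2 fold change against the dose-matched cMO at stage 35/36 for MO1 (horizontal axis) and MO2 (vertical axis, 2 libraries), one point per identifier of the growth arrest and damage response list and the liver list; black rings mark identifiers whose 2 responses differed by the test. Ringed mdm2 and plk2 copies lie to the right with MO2 values near 0, and ringed liver genes lie lower with MO2 than with MO1.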

How the data were processed

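RNA of whole embryos was sequenced as 45 libraries from TruSeq RNA v2 kits, which do not mark strand; reads of overlapping or antisense genes cannot be told apart. The authors deposited raw read counts for 45038 gene identifiers per library. Per the submitters' processing notes, bcl2fastq 2.17.1.14, FastQC 0.11.5, STAR 2.5.2a, featureCounts 1.5.0-p1 and DESeq2 1.8.2 were used. The build, the annotation and how multi-mapping reads were handled were not given in the sources used here. Of the identifiers, 23616 carry a symbol, and 18934 match a symbol in RefSeq's Xenopus table.

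Counts were analysed in R 4.3.3 with edgeR 4.0.16 (limma 3.58.1): a filter at 10 counts by group kept 32110 identifiers and 99.974% of the counts, followed by TMM scaling and quasi-likelihood tests over 44 libraries with terms for group and for replicate number within stage (23 residual degrees of freedom). Fold changes use a prior count of 0.125. DESeq2 1.42.0 and other settings were alternatives. The code was tested on simulated data.

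The block was part of the design because libraries were paired by replicate number, and at stage 35/36 the uninjected, cMO and MO1 libraries of one number share a lane. All 9 correlations between same-numbered libraries' deviations were 0.319 to 0.505, and the 18 between different numbers were -0.302 to -0.036. Deviations were taken from each group's own mean, so positive values for the same number push those for different numbers to be negative. Counting intervals and floors cover counting error only; 3 counts are 0.0803 to 0.111 CPM.

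The comparison and gene lists were chosen with earlier results of these data known, so lists got no test. Genes with a symbol were named by rule: fam132b; the 12 largest changes and 6 smallest p per direction among genes called with the same sign in 3 of 3 pairs, at 1 CPM or more in the higher group and also called against uninjected embryos; up to 5 called members per list by p, or the 2 highest members where none was called; and genes called between cMO and uninjected embryos. Other list members named beside these, and the examples of stage and morpholino differences, were chosen after their values were seen. Some genes that met the rule are not reported here, and list counts leave them out.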

Additional observations from a re-analysis of the deposited data

Results flagged for a closer look

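Several responses differed between the morpholinos at stage 35/36 by the test of the difference itself (edgeR's quasi-likelihood test, Benjamini-Hochberg adjusted p over all genes; 3 MO1 and 2 MO2 libraries with their dose-matched controls). MO1 exceeded MO2, in log2 units, by 2.95 for ptgds.L (SE 0.68, adjusted p = 0.0486), 2.53 for siglec1.L (SE 0.58, adjusted p = 0.0481) and 2.19 for tcn2.S (SE 0.46, adjusted p = 0.0258). Further genes with a larger MO1 rise were parp3.L at 1.97 (SE 0.40, adjusted p = 0.0220), dscaml1.L at 1.59 (SE 0.24, adjusted p = 0.00158), mdm2.L at 1.44 (SE 0.21, adjusted p = 0.00158) and ckap2.S at 1.43 (SE 0.26, adjusted p = 0.00938). hes1.S differed by 0.88 (MO1 0.48, MO2 -0.40, adjusted p = 0.0416), and ndufa8.L by 0.55 (0.48 and -0.07, adjusted p = 0.0266).

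Among lower genes, pzp.L differed by -0.95 (MO1 -1.21, MO2 -0.26, adjusted p = 0.0448) and nol11.S, a gene of ribosomal RNA synthesis, by -0.88 (-0.69 and 0.20, adjusted p = 0.00580). vtn.L differed the other way, by 1.17 (-0.67 and -1.84, adjusted p = 0.00738). Dose and oligomer differ together in these contrasts. The count of genes with a called morpholino difference was 3 in place of 116 without the replicate block. It was also 3 with all 45 libraries, a fit that counts as MO2 the doubted library, which is close to an MO1 library. That fit is therefore no check of these differences. Most genes named here were picked by their MO1 response at stage 35/36, which favours a larger MO1 response.

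Responses that differed between stages 41 and 35/36 were those of foxe1.S, by 1.40 (-0.12 at stage 41 and -1.52 at 35/36, adjusted p = 0.0482), ttr.L, by 1.25 (-0.01 and -1.26, adjusted p = 0.0393), and psph.S, by 0.86 (0.37 and -0.50, adjusted p = 0.0113). The count of genes with a called stage difference was 2 in place of 296 without the replicate block. These genes were named for their stage 35/36 response, which favours a larger response at that stage.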

How the results depend on the processing

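No named gene that was called against cMO changed sign in any alternative. With DESeq2 rpl3l.S and ctrb2.L were not called, which the count of lost calls below does not include. Of 1494 alternative values of named genes, 1084 kept their direction and their side of the threshold, 398 kept direction and lost the call, 3 gained one, and 9 changed sign. Those 9 were of uncalled genes with 1 library left out, over which fam132b.L ranged from -0.13 to 0.21, hbd.S from -0.35 to 0.12, neurod1.S from -0.24 to 0.036, crx.S from -0.28 to 0.022, cryba1.S from -0.13 to 0.16 and tyrp1.L from -0.022 to 0.12. Leaving out the replicate block gave 160 calls against cMO (141 higher, 19 lower), 173 against uninjected embryos, 2 for cMO against uninjected, 258 and 530 at stages 37/38 and 41, 2 for the stage difference, 3 for the morpholino difference and 183 for uninjected 37/38 against 35/36. The fit of stage 35/36 alone gave 566 (172 lower), 3 for cMO against uninjected and 42 for the morpholino difference. The 3 conditions without MO2 and 20 ng cMO gave 657 (385 higher, 272 lower), 832 against uninjected and 183 for the stage difference. DESeq2 gave 9 for cMO against uninjected, 569 for the stage difference and 248 for the morpholino difference. All 45 libraries, with the doubted one counted as MO2, gave 165 and 3 for those differences. Leaving out one library gave 306 to 1167 calls (209 to 630 higher, 88 to 537 lower), 365 to 1306 against uninjected, 2 to 5 for cMO against uninjected, 126 to 331 for the stage difference, 31 to 1.3e+02 for the morpholino difference and 667 to 2485 for uninjected 37/38 against 35/36. The cause was not tested. The adjusted p of mdm2.L, eda2r.L, cdkn1a.L, fgb.S and pzp.L stayed under 0.05 in every alternative, at most 0.025; ttr.L reached 0.092, itih2.S 0.19, stab2.L 0.66, rbp4.S 0.57 and vtn.L 0.80. Genes near the floor of 3 counts cannot show a fall at this depth.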
